A study of Rattus norvegicus with 6 samples.

Results

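The genes of the respiratory chain and of ATP synthase were followed in injured rat sciatic nerve, with the genes encoded in the mitochondrial genome set against those encoded in the nucleus. The members were the 13 protein-coding genes on the mitochondrial chromosome and 95 nuclear protein-coding genes chosen by symbol, 108 of the 33713 genes in the table. The nuclear genes comprised 87 entries named as subunits and their isoforms (symbols starting Ndufa, Ndufb, Ndufc, Ndufs, Ndufv, Uqcr, Cox4 to Cox8 and Atp5, with Sdha to Sdhd) and 8 assembly factors of complex I (symbols starting Ndufaf). The 87 are called nuclear subunit entries or genes below, but a symbol does not make each a subunit. They include Atp5if1, an inhibitor of ATP synthase, and Cox6c-ps1, whose symbol is that of a pseudogene. The choice rested on chromosome, biotype and symbol and on no measured value. The 6 libraries were bulk RNA sequencing of sciatic nerve from Sprague-Dawley rats, all female and 8 weeks old, at day 4. In both groups the nerve had pulled back until the ends lay about 6 mm apart, and both nerve ends were stitched 2 mm deep into a silicone tube 10 mm long. The ES group (3 libraries) was electrically stimulated for 1 h at once, and the control group (3 libraries) was not stimulated. No genetic alteration is named for either group, no uninjured nerve was analysed here, and neither the stretch of nerve taken nor the use of separate animals is stated. The p-values therefore measure only the spread between these libraries, which may be technical.

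The respiratory chain sits in the inner mitochondrial membrane. Complex I (NADH dehydrogenase) and complex II (succinate dehydrogenase) pass electrons to ubiquinone, complex III (the cytochrome bc1 complex) passes them on to cytochrome c, and complex IV (cytochrome c oxidase) passes them to oxygen. The proton gradient built on the way drives complex V, ATP synthase. Complexes I, III, IV and V are built from subunits of both genomes, whereas complex II is wholly nuclear. Mitochondrial genes are transcribed as long precursors from both strands of a circular genome and cut at the intervening tRNAs, so their mRNA levels share a transcription step that nuclear genes do not.

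Library totals ran from 14962319 to 17119144 counts. Markers of Schwann cells, the glia of peripheral nerve, were all detected, and their summed level was 9436 to 12140 CPM (counts scaled to the library total) in control and 11951 to 12783 CPM in ES libraries. Calls rest on the quasi-likelihood fit of edgeR over the 14828 genes with enough counts, at an adjusted p (Benjamini-Hochberg) under 0.05. It called 25 genes, 0.169% of those tested (0.0337% with ES higher and 0.135% with ES lower), and DESeq2 called 308 of 15208, 2.03%. Fold changes below are ES over control on the log2 scale, with their standard error (SE). In bulk tissue, fewer cells of a type and less RNA per cell cannot be told apart.

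No respiratory chain gene was called. All 13 mitochondrial genes, 79 of the 87 nuclear subunit entries and all 8 assembly factors had enough counts to be tested, and edgeR and DESeq2 both called 0 of each. The 8 untested nuclear entries were Ndufa1, Cox6a2, Cox7a1, Cox8b, Cox7b2, Cox8c, Ndufa10l1 and Cox6c-ps1, the last 4 at 0 counts in every library. At an unadjusted edgeR p under 0.05, which 9.95% of all genes reached (4.01% with ES higher and 5.94% with ES lower), there were 1 mitochondrial gene (ND4, ES lower), 1 nuclear subunit gene (Ndufb7, ES higher) and 0 assembly factors. The median fold changes of the mitochondrial and the nuclear genes lay on opposite sides of 0. All 13 mitochondrial genes had a log2 fold change below 0, with a median of −0.12 and a range of −0.34 to −0.02. Of the 79 nuclear subunit entries 60 were above 0, with a median of 0.06 and a range of −0.54 to 0.35. Over all genes tested 49.3% were below 0, the median was 0.0025, and the 25th and 75th percentiles were −0.13 and 0.11. The mitochondrial pattern rested on 1 library: without control 1, 7 of the 13 mitochondrial genes were below 0 and their median was −0.0030. With ES 3 left out 12 were below 0. Without control 3 the median was −0.22.

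**Figure D1:**
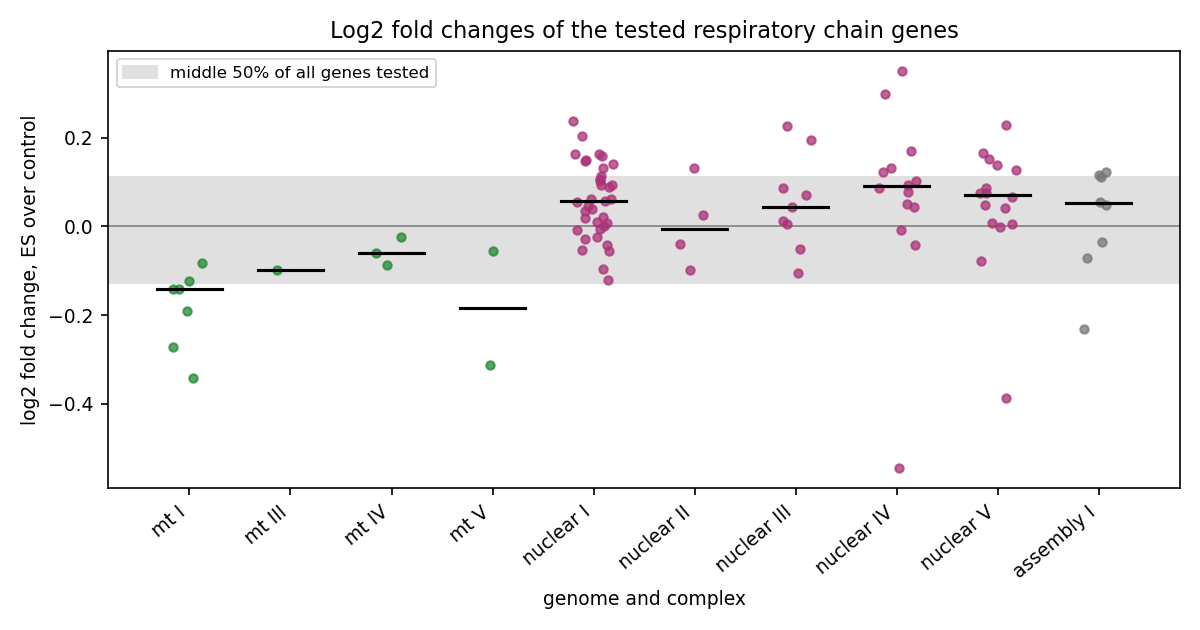
Log2 fold change (ES over control) of each tested member, 1 point per gene, grouped by genome (mt, mitochondrial) and complex. Black lines are group medians and the grey band runs from the 25th to the 75th percentile of all genes tested (−0.13 to 0.11). The 13 mitochondrial genes lie between −0.34 and −0.02, and the nuclear subunit genes lie between −0.54 and 0.35.

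The mitochondrial mRNAs took 5.29%, 4.68% and 4.16% of the counts in control 1, 2 and 3, and 4.44%, 4.46% and 4.44% in ES 1, 2 and 3. The 95% Wilson intervals of these shares, which cover counting error only, were at most 0.0109 percentage points wide to either side. The control libraries spread widely and the ES libraries hardly at all, and the control values lay on both sides of the ES values. The means were 4.71% ± 0.565 in control and 4.45% ± 0.0104 in ES libraries (SD, n = 3 each), a difference of −0.261 percentage points, smaller than the control SD. The nuclear subunit mRNAs took 0.652%, 0.696% and 0.713% in control and 0.734%, 0.701% and 0.701% in ES libraries, with means of 0.687% ± 0.0313 and 0.712% ± 0.0192, and the groups overlapped.

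The balance of the genomes was read as the ratio of mitochondrial to nuclear subunit counts within a library. It was 8.11, 6.73 and 5.83 in control 1, 2 and 3 and 6.05, 6.36 and 6.34 in ES 1, 2 and 3. Control 1 was highest and control 3 lowest, so all ES libraries lay inside the control range. The mean ratio was 6.89 ± 1.14 in control and 6.25 ± 0.175 in ES libraries (SD, n = 3 each). The difference on the log2 scale was −0.13, with values of −0.24 to −0.0043 when 1 library was left out in turn, the value nearest 0 being that without control 1. By complex, the ratio was 5.51 ± 1.17 against 4.72 ± 0.195 for complex I, 8.85 ± 1.46 against 7.93 ± 0.455 for complex III, 17.2 ± 2.89 against 15.4 ± 0.425 for complex IV and 2.77 ± 0.330 against 2.58 ± 0.0737 for complex V, control before ES. In each of these complexes the groups overlapped.

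Control 1 was the highest library for most mitochondrial genes. Relative to each gene's mean over the libraries, the median of the 13 mitochondrial genes was 0.24 (log2) in control 1, 0.03 in control 2, −0.13 in control 3 and between −0.09 and −0.01 in the ES libraries. The corresponding nuclear medians lay between −0.06 and 0.06, with control 1 lowest. In CPM, control 1 held the highest level of 11 of the 13 mitochondrial genes, and control 2 that of ND6 and ATP8. For ND6, control 1 and control 2 were almost level at 479 and 480 CPM. For ATP8, control 1 was the lowest control library, at 12.0 CPM against 16.9 in control 2 and 14.3 in control 3. Control 3 held the lowest of 8 of the 13 in CPM and of 10 in FPKM. Among the 79 nuclear entries, the lowest library was control 1 for 31 and control 2 for 21.

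**Figure D2:**
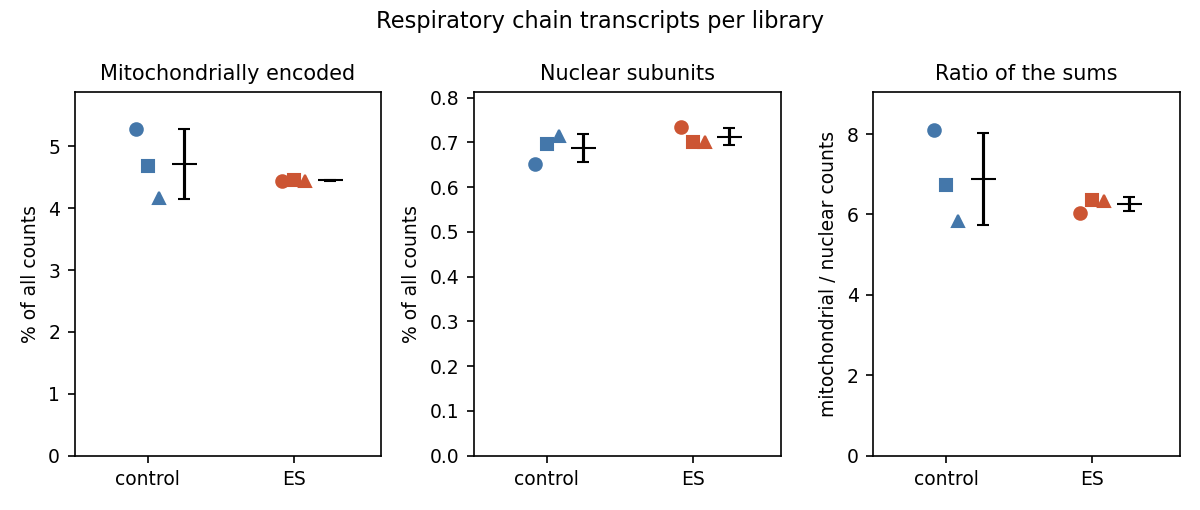
Share of counts taken by mitochondrial and by nuclear subunit mRNAs, and their ratio, in each library (circle, square and triangle for replicates 1, 2 and 3), with the group mean and SD in black. The ratio runs from 5.83 to 8.11 in control and from 6.05 to 6.36 in ES libraries.

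Levels of the mitochondrial mRNAs differed far more between genes than between groups. Per length (FPKM, fragments scaled to gene length and library depth), the mean level over the 6 libraries was highest for ATP6, a proton channel subunit of ATP synthase, at 9740. The catalytic core subunits of cytochrome c oxidase followed, with COX1 at 8859, COX3 at 8396 and COX2 at 5398, and CYTB, the cytochrome b of complex III, stood at 4856. The complex I genes were lower, with ND1 at 3353, ND2 at 2520, ND3 at 1422, ND4L at 1404, ND5 at 1103, ND6, annotated on the minus strand, at 826 and ND4 at 260. ATP8, the other mitochondrial subunit of ATP synthase, was lowest at 63.5. Between neighbours in this order, the ranges over the 6 libraries overlapped for ATP6 and COX1, COX1 and COX3, COX2 and CYTB, ND1 and ND2, ND3 and ND4L, and ND4L and ND5, and were apart for the rest.

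The neighbours ND4 and ND4L, and ATP6 and ATP8, share a transcript in mammals, and their annotated bodies overlap in the table (ATP8 at MT 7758 to 7961 and ATP6 at 7919 to 8599, ND4L at 9870 to 10166 and ND4 at 10160 to 11537). Their mean FPKM nevertheless differed, by 153-fold for ATP6 over ATP8 and by 5.40-fold for ND4L over ND4. No label or header says how the authors' counting treated reads over such overlaps. The levels of these 4 genes are therefore uncertain. ATP8 had 182 to 258 counts per library. The ratio of ND4L to ND4 also depends on a nuclear locus described as the ND4 subunit: with its counts added to those of ND4, over the length of ND4, the level would be 669 FPKM in place of 260 and the ratio 2.10.

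**Figure D3:**
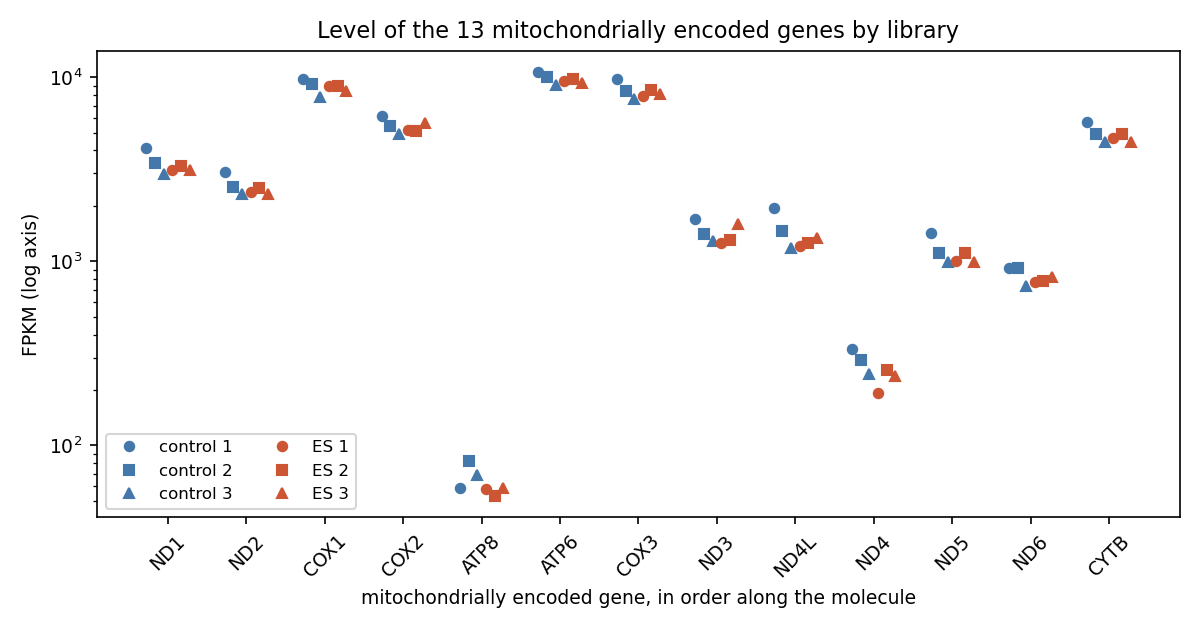
FPKM of each mitochondrial gene in each library on a log axis, 1 point per library, with the genes in their order along the molecule. Mean levels range from 63.5 (ATP8) to 9740 (ATP6), and control 1 is the highest library for 11 of the 13 genes.

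ND4, a proton-pumping subunit of complex I, had the lowest p of the mitochondrial genes. Its level was 334, 292 and 244 FPKM in control 1, 2 and 3 and 193, 259 and 238 FPKM in ES 1, 2 and 3. The groups overlapped, with control 3 below ES 2. The log2 fold change was −0.34 ± 0.14 (SE; edgeR unadjusted p = 0.0364, adjusted p = 0.458; DESeq2 adjusted p = 0.193). An unnamed locus on chromosome 20 (19484509 to 19485846, plus strand), which the table describes as NADH-ubiquinone oxidoreductase chain 4, held 61.2% of the counts of the pair. It had 7364, 10135 and 7255 counts in control and 10015, 11383 and 8134 in ES libraries, against 7495, 6165 and 5280 and then 4495, 5959 and 4993 for ND4. With both added, the log2 fold change was −0.01 ± 0.12 and edgeR's adjusted p 0.978, within a range of 0.193 to 0.978 over the alternatives tried for ND4. This sum was added after the values were seen.

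ATP8 was the only mitochondrial gene whose groups did not overlap. It stood at 58.7, 82.6 and 69.4 FPKM in control and 58.3, 53.3 and 58.6 FPKM in ES libraries, with control 1 just above the highest ES library. Its log2 fold change was −0.31 ± 0.15 (edgeR adjusted p = 0.523). Non-overlap with ES lower was found for 8.23% of all genes tested. ND4L, with 1960, 1456 and 1186 FPKM in control and 1217, 1265 and 1341 in ES libraries, had a difference of −0.27 ± 0.17 on the log2 scale, which did not pass (edgeR adjusted p = 0.660). The 10 remaining mitochondrial genes had log2 fold changes of −0.19 to −0.02 and edgeR adjusted p-values of 0.671 to 0.959. ND5, another pumping subunit of complex I, had 1429, 1105 and 989 FPKM in control and 1000.1, 1105 and 991 in ES libraries. COX1, which carries the oxygen-reducing site of complex IV, had 9789, 9130 and 7848 in control and 8990, 8939 and 8458 in ES libraries. In both, control 1 had the highest FPKM and control 3 the lowest.

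Nuclear subunit mRNAs were less abundant than most mitochondrial ones, with a median FPKM of 76.3 over 87 entries against 2520 over the 13 mitochondrial genes. By complex, the nuclear medians were 57.4 for complex I, 88.03 for complex II, 68.4 for complex III, 127 for complex IV and 174 for complex V, and 6.19 for the assembly factors. The highest nuclear level was that of Atp5f1b, the catalytic beta subunit of ATP synthase, at 437. The median log2 fold change of the tested nuclear entries was 0.06 for complex I (36 tested, 27 above 0), −0.01 for complex II (4 tested, 2 above 0), 0.04 for complex III (9 tested, 7 above 0), 0.09 for complex IV (14 tested, 11 above 0) and 0.07 for complex V (16 tested, 13 above 0). The ES libraries did not overlap the control libraries in 3 entries with ES higher (3.80%, against 7.54% of all genes tested) and in 1 with ES lower (1.27%, against 8.23%). The number of nuclear entries above 0 was 51 of 79 without control 1 and 53 without control 2.

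The promoters of nuclear respiratory genes are known for sites of NRF-1, of ETS-family factors such as GABP (NRF-2) and of YY1, which tie many of them to common regulators. In RefSeq's GRCr8 windows of 300 bases (250 before to 50 after the annotated start), found for 73 of the 85 nuclear subunit symbols, these motifs were searched on both strands. CGCANGCG (NRF-1) was in 22 windows, 30.1%, against 10.5% of all 19005 protein-coding windows. CCGGAAG (ETS) was in 20, 27.4% against 11.2%. AAGATGGCG (YY1) was in 9, 12.3% against 2.29%. TATAAA, the TATA box, was in 5, 6.85% against 13.1%. A match describes the letters only, and windows could hold more than 1 motif. Longer spellings of the NRF-1 and YY1 letters were searched first and gave smaller shares both in the members and in all windows. The median log2 fold change was 0.05 with and 0.07 without the NRF-1 letters, 0.05 and 0.06 for ETS, 0.06 on both sides for YY1, and 0.13 with (4 tested genes) and 0.06 without TATAAA. The following windows show the kinds of match, for the genes Atp5me, Ndufa11 and Cox5b described below and for Uqcrc1, a core protein of complex III picked after its sequence was seen because it holds both NRF-1 and YY1 letters. Capitals mark the motif letters, on either strand: NRF-1 and ETS in Atp5me, overlapping NRF-1 matches in Ndufa11, ETS in Cox5b, and NRF-1 and YY1 in Uqcrc1.
Atp5me promoter, GRCr8 chr14:1464610-1464909, plus strand: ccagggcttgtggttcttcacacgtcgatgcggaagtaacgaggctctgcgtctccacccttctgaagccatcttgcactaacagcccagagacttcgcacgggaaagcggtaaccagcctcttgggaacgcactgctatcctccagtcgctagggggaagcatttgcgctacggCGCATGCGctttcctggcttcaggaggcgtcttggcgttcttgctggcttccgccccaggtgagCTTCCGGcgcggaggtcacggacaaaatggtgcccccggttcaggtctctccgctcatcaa
Ndufa11 promoter, GRCr8 chr9:1637364-1637663, plus strand: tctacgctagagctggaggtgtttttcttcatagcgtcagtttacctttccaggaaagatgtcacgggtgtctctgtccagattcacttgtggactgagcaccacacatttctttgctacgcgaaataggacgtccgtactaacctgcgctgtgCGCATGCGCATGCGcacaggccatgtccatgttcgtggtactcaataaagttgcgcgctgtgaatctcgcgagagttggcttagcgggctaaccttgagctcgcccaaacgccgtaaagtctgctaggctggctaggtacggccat
Cox5b promoter, GRCr8 chr9:46417587-46417886, plus strand: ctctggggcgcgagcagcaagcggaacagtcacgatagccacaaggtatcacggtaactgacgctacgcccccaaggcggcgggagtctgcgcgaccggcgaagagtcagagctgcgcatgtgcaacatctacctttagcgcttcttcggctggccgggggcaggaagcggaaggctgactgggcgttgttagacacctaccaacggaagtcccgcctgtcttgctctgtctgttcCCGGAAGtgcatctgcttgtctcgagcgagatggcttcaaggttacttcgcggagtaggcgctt
Uqcrc1 promoter, GRCr8 chr8:118467973-118468272, plus strand: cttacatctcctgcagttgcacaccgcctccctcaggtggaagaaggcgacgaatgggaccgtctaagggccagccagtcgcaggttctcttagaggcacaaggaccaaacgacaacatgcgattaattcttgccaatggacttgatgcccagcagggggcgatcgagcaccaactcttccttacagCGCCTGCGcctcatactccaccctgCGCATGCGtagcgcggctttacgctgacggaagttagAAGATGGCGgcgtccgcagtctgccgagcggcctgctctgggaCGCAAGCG

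Among the nuclear genes of complex I, the lowest p was that of Ndufb7, an accessory subunit on the side facing the intermembrane space. It stood at 45.5, 49.5 and 50.7 CPM in control and 57.8, 50.3 and 59.9 CPM in ES libraries. The groups overlapped, since ES 2 lay just below control 3. Its log2 fold change was 0.20 ± 0.09 (edgeR unadjusted p = 0.0447, adjusted p = 0.483). Ndufb11, an X-linked accessory subunit, did not overlap, with 58.1, 65.01 and 60.7 CPM in control and 68.3, 72.1 and 65.5 in ES libraries, the closest pair being control 2 and ES 3. Its log2 fold change was 0.16 ± 0.08 (edgeR adjusted p = 0.523). Ndufa7, Ndufa11 and Ndufa13, further accessory subunits, had log2 fold changes of 0.15 ± 0.09, 0.13 ± 0.08 and 0.15 ± 0.14, with overlapping groups in all 3. Ndufa5, named because its groups did not overlap, had 36.8, 36.2 and 35.8 CPM in control and 37.8, 39.2 and 43.1 in ES libraries, with a log2 difference of 0.14 ± 0.09 (edgeR adjusted p = 0.637). The assembly factors, which help to build complex I and are not part of it, had a median log2 fold change of 0.05, and the lowest adjusted p among them was 0.706, for Ndufaf8 at 11.3 ± 0.709 CPM in control and 9.58 ± 1.95 in ES libraries. Ndufaf3, Ndufaf5 and Ndufaf7 had log2 fold changes of 0.12 ± 0.13, 0.11 ± 0.13 and 0.11 ± 0.12.

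Complex II links the citric acid cycle to the chain. Sdhb, its iron-sulphur subunit, had 80.5, 88.5 and 94.6 CPM in control and 102, 94.5 and 91.8 in ES libraries, a log2 difference of 0.13 ± 0.08 (edgeR adjusted p = 0.643). Sdha, its flavoprotein subunit, had 128 ± 5.63 CPM in control and 119 ± 5.55 in ES libraries, −0.10 ± 0.07 (edgeR adjusted p = 0.702). The groups overlapped in both, and the membrane anchor Sdhc stood at 163 ± 8.76 and 159 ± 10.9 CPM.

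In complex III, the small subunits Uqcr10 and Uqcr11 had log2 fold changes of 0.23 ± 0.18 and 0.19 ± 0.14, and in both control 1 was the lowest library. Uqcrfs1, the Rieske iron-sulphur protein that hands electrons to cytochrome c1, did not overlap between groups. It stood at 100.4, 95.5 and 98.9 CPM in control and 106, 100.5 and 106 CPM in ES libraries, with control 1 and ES 2 almost level, and its log2 fold change was 0.09 ± 0.07 (edgeR adjusted p = 0.730). The hinge protein Uqcrh had 70.7 ± 2.54 and 71.4 ± 4.59 CPM.

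In complex IV, Cox5b, a nuclear subunit on the matrix side, had the lowest p. It stood at 98.7, 120 and 127 CPM in control and 161, 115 and 149 CPM in ES libraries. ES 2 lay below both control 2 and control 3. Its log2 fold change was 0.30 ± 0.14 (edgeR unadjusted p = 0.0661, adjusted p = 0.530), and without ES 2 its adjusted p was 0.191, the lowest that any named member reached under any alternative, within a range of 0.191 to 0.838 for Cox5b. Several subunits of complex IV exist as isoforms, a broad form and others known from muscle, lung, testis or low oxygen. The broad isoform was the main one here in each pair measured. Cox4i1 stood at 292 ± 2.63 CPM in control and 302 ± 17.7 in ES libraries, and its mean FPKM was 187 times that of Cox4i2, the isoform known from lung and from low oxygen. Cox4i2 had 3.76, 1.77 and 2.63 CPM in control and 1.48, 2.28 and 1.84 in ES libraries, a log2 difference of −0.54 ± 0.34 (edgeR adjusted p = 0.643), with control 1 highest and the groups overlapping. Cox6b1 on chromosome 1 exceeded the testis isoform Cox6b2 by 32.9-fold in mean FPKM, and Ndufa4, a complex IV subunit despite its symbol, which the rule counts with complex I, exceeded Ndufa4l2, known to be induced in low oxygen, by 18.8-fold. Ndufa4l2 had 5.40 ± 0.704 CPM in control and 6.36 ± 0.865 in ES libraries, 0.24 ± 0.20 (edgeR adjusted p = 0.743).

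The isoforms of striated muscle were at the edge of detection. Cox6a2 had 2, 4 and 3 counts in control and 3, 2 and 0 in ES libraries, and Cox7a1 had 10, 0 and 5 and then 8, 4 and 0. Cox8b had 2 counts, both in ES 2, and the testis isoforms Cox7b2 and Cox8c had 0 in all 6 libraries. A count of 0 allows up to 3 counts, which is 0.175 to 0.201 CPM in these libraries. The broad partners Cox6a1, Cox7a2 and Cox8a had 190 ± 30.8, 82.1 ± 6.05 and 148.5 ± 30.4 CPM in control and 214 ± 27.6, 88.1 ± 5.83 and 163 ± 7.79 CPM in ES libraries. Cox7b, the broad partner of Cox7b2, had 57.9 ± 5.66 CPM in control and 61.8 ± 0.925 in ES libraries. Skeletal muscle markers summed to 15.4 to 19.2 CPM in control and 10.2 to 15.2 CPM in ES libraries. Most of this came from Myh1 and Tnnt3, while Mb and Myot were at 0 in every library. Of the 5 tested, 3 had a log2 fold change below 0 and 2 above. Mylpf was among those above, at 0.246, 0.328 and 0.771 CPM in control and 1.07, 0.839 and 1.77 in ES libraries. Brown adipocyte markers summed to 121 to 138 CPM in control and 102 to 120 CPM in ES libraries, mostly from Prdm16 and Ebf2, while the defining markers Ucp1 and Zic1 were at 0 in every library. Neither sum overlapped between the groups, and its part in the values above was not tested.

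**Figure D4:**
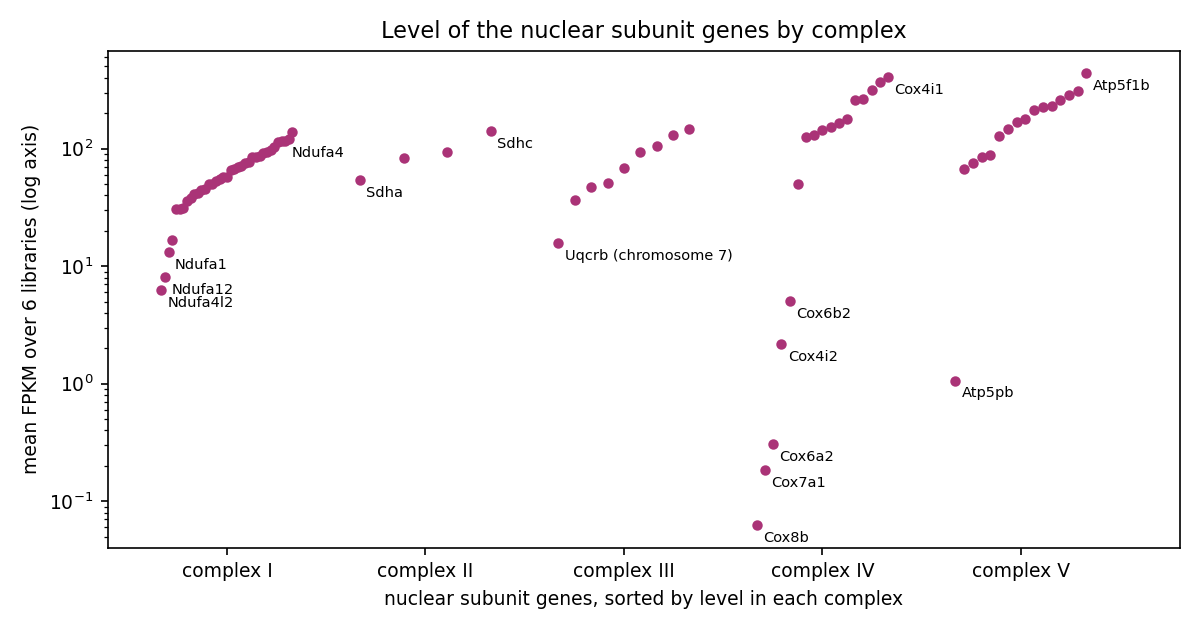
Mean FPKM over the 6 libraries (log axis) of each nuclear subunit gene with a count, sorted by level within each complex, 1 point per gene, with selected genes labelled. Cox4i1 and Atp5f1b (437) lie at the top, and the isoforms Cox6b2, Cox4i2, Cox6a2, Cox7a1 and Cox8b lie below the other complex IV genes.

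Among the nuclear genes of complex V, Atp5me, the e subunit of the membrane part, which takes part in pairing ATP synthases, had the lowest p. It stood at 21.3, 23.7 and 26.1 CPM in control and 30.1, 27.1 and 25.9 CPM in ES libraries, with ES 3 just below control 3. Its log2 fold change was 0.23 ± 0.11 (edgeR unadjusted p = 0.0657, adjusted p = 0.530). Atp5if1, the inhibitor of the enzyme's reverse reaction, had 84.5, 88.1 and 90.7 CPM in control and 103, 107 and 85.8 in ES libraries, 0.17 ± 0.09 (edgeR adjusted p = 0.577). Atp5mc2, which encodes the c subunit of the rotor, stood at 191 ± 7.80 and 209.8 ± 12.9 CPM, 0.14 ± 0.08. The catalytic Atp5f1b stood at 764 ± 53.03 and 789.9 ± 29.6 CPM, 0.05 ± 0.08.

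For 14 members the table holds another locus described as the same subunit. The split of counts within a pair was stable for some, with the partner of Ndufb4 at 2.80% to 3.73% of the pair in every library, and differed widely between libraries for others, such as Ndufa1 and Atp5pb. These entries were looked up after the values were seen. Ndufa1, an X-linked complex I subunit, had 2, 3 and 1 counts in control and 6, 265 and 4 in ES libraries, while LOC108348144, also on X, had 4, 95 and 467 and then 5, 10 and 4. The pair was high in control 3 and ES 2, intermediate in control 2 and near 0 in the remaining libraries, and the log2 fold change of the sum was −1.05 ± 1.94 (edgeR adjusted p = 0.906). Among 14089 genes with at least 100 counts in all, 8 had 90% or more of them in ES 2, and Ndufa1 was among them. Atp5pb, a stalk subunit of ATP synthase, was the nuclear entry whose groups did not overlap with ES lower. It had 38, 42 and 37 counts in control and 33, 33 and 27 in ES libraries, and its partner LOC100911417 held 84.1% of the counts of the pair, with 29, 22 and 503 in control and 24, 517 and 17 in ES libraries. The log2 fold change of the sum was −0.13 ± 1.49 (edgeR adjusted p = 0.987). For Cox6b1 the entry on chromosome 2 held 11.7% of the pair (10.8% to 13.2% by library), and the sum had a log2 fold change of 0.10 ± 0.08. For Uqcrb the entry on chromosome 1 held 58.4% of the pair (55.0% to 62.0% by library). The sum of the Uqcrb entries had a log2 fold change of −0.04 ± 0.13. Both entries of Uqcrb, in complex III, and of Cox6b1, in complex IV, were counted separately among the nuclear subunit entries. Whether reads were split between such entries by the authors' counting was not tested, and the fold changes of these genes are uncertain.

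**Figure D5:**
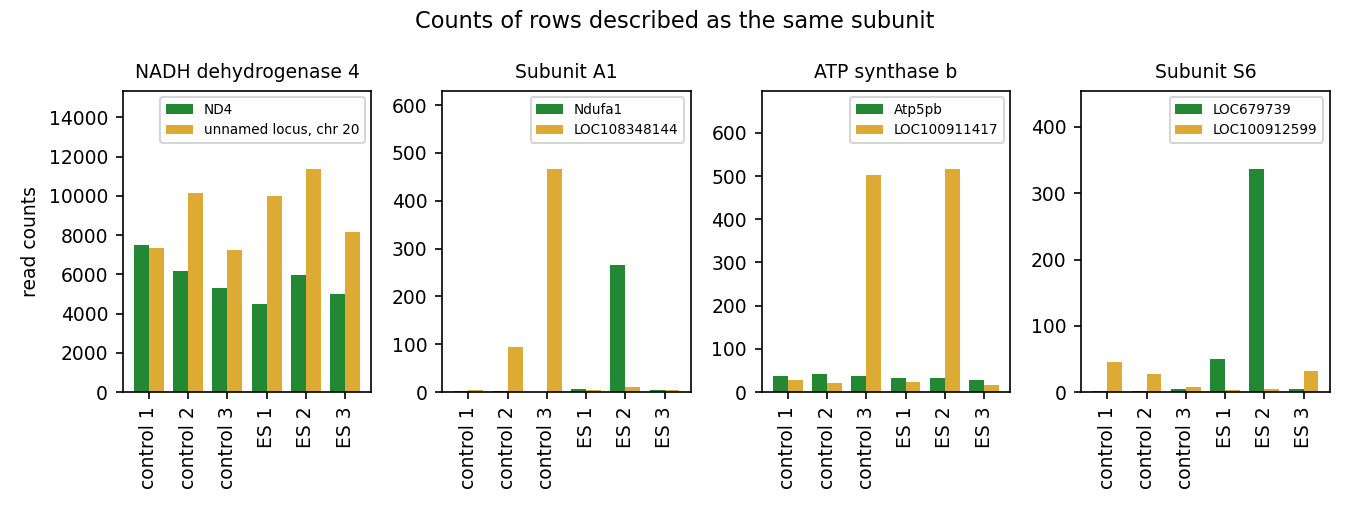
Read counts per library of pairs of loci that the table describes as the same subunit, each panel with its own axis. Ndufa1 is high in ES 2 and LOC108348144 in control 3, and LOC100911417 is high in both of these libraries. The last panel shows 2 loci for the complex I subunit Ndufs6, which are no members.

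Genes that serve the chain without being part of it gave few low p-values and no calls. Of 8 lists of such genes, edgeR and DESeq2 called 0 members in each. Of the 39 genes of the mitochondrial ribosome and its translation factors, 30 had a log2 fold change above 0, with a median of 0.04. Of these 39, 6 did not overlap with ES higher, 15.4% against 7.54% of all genes, and 0 with ES lower. The share with ES higher was 14.3% for regulators of mitochondrial biogenesis, 11.8% for the citric acid cycle and 9.09% for mitochondrial turnover. It was 5.56% or less in the remaining lists. The share with ES lower was 14.3% for the regulators and 10.7% for assembly factors of complexes II to V, against 8.23% of all genes. It was 5.88% or less in the remaining lists. Mrps6 stood at 32.6 ± 2.16 CPM in control and 38.4 ± 1.44 in ES libraries, 0.24 ± 0.09 (edgeR adjusted p = 0.401), and Mrpl12 had a log2 fold change of 0.17 ± 0.09 (adjusted p = 0.543). Of 18 genes of electron carriers and their synthesis, 13 were below 0 with a median of −0.04, among them Coq8a, a kinase-like protein of ubiquinone synthesis, at −0.39 ± 0.17 (edgeR adjusted p = 0.492), and Coq10a, a ubiquinone-binding protein, at −0.37 ± 0.21 (adjusted p = 0.608). The medians of the other lists were 0.03 for the assembly factors of complexes II to V (28 tested), −0.01 for mitochondrial DNA maintenance and transcription (18), 0.04 for mitochondrial RNA processing (18), −0.02 for the citric acid cycle (17) and 0.04 for mitochondrial turnover (11). Of the assembly factors, Sdhaf2, which helps to attach the flavin of complex II, stood at −0.18 ± 0.08 (edgeR adjusted p = 0.465) and Tmem70, an assembly factor of ATP synthase, at −0.20 ± 0.11 (adjusted p = 0.584). Of the genes that keep and transcribe mitochondrial DNA, the thymidine kinase Tk2 stood at −0.21 ± 0.11 and Mterf1 at 0.32 ± 0.22. Of the RNA processing genes, Lrpprc, which stabilises mitochondrial mRNAs, stood at 0.14 ± 0.08, and the entry AABR07053741.1, matched to Fastkd5 by an older symbol and annotated as a pseudogene, at 0.38 ± 0.16 (edgeR adjusted p = 0.467). Pdha1, a subunit of pyruvate dehydrogenase, stood at −0.15 ± 0.07 and the malate dehydrogenase Mdh2 at 0.09 ± 0.07.

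The regulators of mitochondrial biogenesis (14 tested, median 0.01, 8 above 0) included the fold change farthest from 0 in these lists. Ppargc1a, the coactivator PGC-1 alpha, had 2.53, 2.16 and 2.05 CPM in control and 0.711, 1.26 and 1.38 CPM in ES libraries. The ES libraries were all lower, but at these low levels the log2 fold change was −1.01 ± 0.34 with an edgeR unadjusted p of 0.0145 and an adjusted p of 0.328. Esrra, its partner nuclear receptor, had 24.8, 33.3 and 32.4 CPM in control and 40.8, 35.4 and 33.9 in ES libraries, 0.28 ± 0.13 (edgeR adjusted p = 0.497), and its groups did not overlap. Sqstm1, an autophagy receptor, had 439.7 ± 44.9 CPM in control and 534 ± 38.6 in ES libraries, 0.28 ± 0.09 (edgeR adjusted p = 0.316), and Bnip3, a mitophagy receptor, stood at 0.14 ± 0.16. Adipocyte markers, summed over 14 genes, were 1672 to 2099 CPM in control, highest in control 1, and 277 to 998 CPM in ES libraries. Macrophage and monocyte markers were 2368 to 2886 CPM in control and 3213 to 4353 CPM in ES libraries. Endothelial markers were 697 to 781 CPM in control and 549 to 587 CPM in ES libraries. Axon and neuron markers were 252 to 432 CPM in control and 216 to 418 CPM in ES libraries. The groups did not overlap, with ES lower, in 11 of 14 adipocyte and 6 of 8 endothelial markers tested, against 8.23% of all genes. The same held for 1 of 7 neutrophil and 1 of 6 axon and neuron markers. With ES higher, they did not overlap in 8 of 13 macrophage and monocyte markers, against 7.54% of all genes. It was so too for 3 of 10 Schwann cell and 2 of 7 neutrophil markers. Of the 10 Schwann cell markers 8 had a log2 fold change above 0, with a median of 0.17. In these lists edgeR called only the VEGF receptor gene Kdr (adjusted p = 0.0366). Among markers that edgeR tested, DESeq2 called 3 of 14 adipocyte, 6 of 13 macrophage and monocyte and 4 of 8 endothelial markers. It also called 3 of 10 Schwann cell, 2 of 7 neutrophil and 1 of 6 axon and neuron markers, against 2.03% of all genes. Erythrocyte markers reached 2042 CPM and neutrophil markers 328 CPM, both in ES 2. Of the 7 neutrophil markers tested 6 had a log2 fold change above 0 and 1, Mpo, below. Mpo had 10.8, 5.90 and 7.19 CPM in control and 0.0593, 0.719 and 0.854 in ES libraries. The part of these cells in the values above was not tested.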

How the data were processed

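Sciatic nerve RNA from 6 libraries (3 control, 3 ES) was, per the labels' protocols, extracted with TRIzol and built into libraries with the NEBNext Ultra RNA kit. The authors deposited whole-number read counts per gene, FPKM values for the same libraries, and FPKM group means, which were used only for a check. The deposited FPKM are counts over gene length and over 1 constant per library, which differed from the column total by −2.30% to 1.83%. For aligner, counter and strand handling, nothing was given in the sources used. Build rn7 is named in the submitters' processing notes, but the gene names resemble an earlier rat build, so the build of printed coordinates is not settled. Promoters are from RefSeq, GRCr8, matched by symbol.

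Counts were tested with edgeR 4.0.16 (TMM, filterByExpr, robust quasi-likelihood, R 4.3.3), two-sided, with Benjamini-Hochberg adjustment over all genes tested. Library totals were 14962319 to 17119144 counts, and 2 empty lines were left out. SEs are the absolute log2 fold change over the square root of F. Alternatives were DESeq2 1.42.0, limma 3.58.1 on counts (voom) and on log2(FPKM + 0.1) and log2(FPKM + 1) with a minimum mean FPKM of 0.1, other size factors, nuclear genes only for scaling, no filter, the replicate number as a block, leaving out each library, and, added after the data were seen, copies summed to their member. The edgeR script was tested on simulated data. Of 274 list memberships 256 matched the table, 2 by an older symbol. Named were all mitochondrial genes, the isoforms, the 3 members per complex with the lowest p and 2 with the highest level, and 2 genes of each further list. Genes outside that rule are said to be chosen after their values were seen, which also holds for Ndufa1, Atp5pb and the cell markers named. The members and lists were chosen with earlier results of these data known.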

Additional observations from a re-analysis of the deposited data

How the results depend on the processing

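Of 1036 values of 61 genes under the alternatives, 1020 kept their direction and side of the threshold and 16 changed sign, all on leaving out 1 replicate, and none became a call. The number of called genes was 0 for the mitochondrial and for the nuclear set under every alternative run. Over all genes the calls were 25, against 308 with DESeq2, 2 with voom, with non-robust estimates and with either FPKM fit, 132 without a filter and 2 to 152 when 1 library was left out (152 without control 2, fewest without control 3). The median of all genes moved by under 0.1 (log2) under each scaling. As a share of summed FPKM the mitochondrial difference was −0.753 percentage points. Without 1 replicate, the share difference ran from −0.537 (without control 3) to 0.0273 (without control 1), the median log2 fold change from −0.22 to −0.0030 for mitochondrial and 0.03 to 0.09 for nuclear genes, and the log2 ratio from −0.24 to −0.0043. Sign changes without control 1 gave ranges of −0.20 to 0.039 for ND3, −0.18 to 0.0051 for CYTB, −0.11 to 0.051 for COX1 (also without ES 3), −0.13 to 0.034 for COX2, −0.16 to 0.019 for COX3, −0.11 to 0.0049 for ATP6, and −0.017 to 0.27 for Cox8a and −0.0034 to 0.085 for Atp5f1b. Those without ES 1, 2 or 3 ran −0.083 to 0.0055 for Ndufa4, −0.078 to 0.022 for Sdhc, −0.017 to 0.070 for Uqcrh (also without control 1) and −0.054 to 0.27 for Bnip3. The cause was not tested.

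With the replicate number as a block, edgeR called 11 genes over all genes and 0 members, and the medians were −0.12 for mitochondrial and 0.06 for nuclear genes. The correlations of same-numbered libraries, on deviations from the group mean, were −0.125, −0.130 and −0.0368, and no library correlated best with its own number. Over all pairs of a control and an ES library they ran from −0.130 to 0.157. With 3 libraries per group, whose deviations sum to 0, this cannot decide whether the numbers pair the libraries. ATP8, Cox4i2, Ndufa1 and Atp5pb are limited by few counts in some or all libraries.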

Other observations

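Ndufs6 is a complex I subunit, but the entry of that name was annotated as a processed pseudogene and was no member, with 0, 1 and 0 counts in control and 0, 1 and 1 in ES libraries. The locus LOC679739 had 2, 2 and 5 counts in control and 50, 337 and 5 in ES libraries, and LOC100912599 had 46, 27 and 7 and then 3, 5 and 32. Both are described in the table as this subunit. The mitochondrial ribosomal RNAs took 0.0499% ± 0.00559 of counts in control and 0.0503% ± 0.00721 in ES libraries.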
